A study of Mus musculus with 4 samples.

Results

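The genes described here are 9 receptors that steer natural killer (NK) cells out of tissues and towards inflamed or lymphoid sites: the sphingosine 1-phosphate (S1P) receptors S1pr1, S1pr4 and S1pr5, and the chemokine receptors Cx3cr1, Cxcr3, Cxcr4, Cxcr6, Ccr2 and Ccr7. They were taken by name from the deposited table of gene counts, which lists 26611 gene numbers and held all 9. All 9 were also among the 12723 genes with enough counts to be tested. The table holds RNA sequencing counts from mouse spleen NK cells of the C57BL/6 background, with 2 wild-type (WT) libraries and 2 Tcf7 knock-out (KO) libraries, each from its own mouse. Tcf7 encodes the transcription factor Tcf-1, and the series asks what it does in NK cells. No treatment, age or kind of knock-out allele is given in the sources used here. Cells of both genotypes were sorted for NK1.1, NKp46, CD11b and KLRG1 and against the T cell receptor beta chain. The values therefore describe mature NK cells of the spleen and say nothing of immature NK cells or of cells in marrow, blood or lymph nodes.

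S1P is abundant in blood and lymph and scarce inside tissues, and lymphocytes that carry an S1P receptor follow this gradient out of an organ. In NK cells S1pr5 is known as the receptor for exit from bone marrow and lymph nodes, while Cxcr4 holds cells in the marrow, where its ligand Cxcl12 is made. Chemokine receptors signal through inhibitory G proteins and direct cells to sites where their ligands are produced.

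The knock-out label was checked on Tcf7 itself, with 89.5 and 79.1 CPM in WT mice versus 11.2 and 25.0 CPM in KO mice. CPM are counts scaled to library size, here adjusted with TMM factors, which balance the libraries on the bulk of their genes. Total counts ranged from 28254693 to 40175537 per library, so that 1 CPM stands for 28.3 to 40.2 counts. The sort label was checked on Ncr1 (NKp46), which ranged from 1510 to 1732 CPM, and on Klrb1c (NK1.1), which ranged from 3595 to 4767 CPM. Itgam (CD11b) stood at 1149 and 1547 CPM in WT mice versus 943 and 1418 CPM in KO mice. Klrg1 stood at 817 and 740 CPM in WT mice versus 1410 and 915 CPM in KO mice. Both KO values of Klrg1 lay above both WT values. Of the T cell genes Cd3e lay between 0.239 and 0.610 CPM, Cd3d between 1.15 and 3.82 CPM and Cd3g between 3.29 and 5.42 CPM. Transcripts of the T cell receptor beta constant genes stood at 56.0 to 92.5 CPM for Trbc1 and 65.0 to 121 CPM for Trbc2. The sort was against the protein, and whether these transcripts came from T cells was not tested. Libraries with the same number resembled each other, and the labels give the numbers no meaning. Genes longer than 4000 bases took 23.2% and 21.8% of counts in the WT and KO libraries numbered 1, and 29.8% and 29.9% in those numbered 2. Ratios of KO to WT are therefore also given within each number.

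Because 4 receptors had both KO values on one side of both WT values, the 300 bases around their transcript starts are printed here. Of all genes tested 21.2% also had both KO values on one side. Sequences are from RefSeq (GRCm38.p6, the assembly also called mm10), run from 250 bases before the start to 50 after it, and read in the direction of the gene. Capitals mark a match to the Tcf/Lef motif, searched on both strands as CTTTG followed by 2 bases that are each A or T.
Cx3cr1, chr9:120068247-120068546, minus strand: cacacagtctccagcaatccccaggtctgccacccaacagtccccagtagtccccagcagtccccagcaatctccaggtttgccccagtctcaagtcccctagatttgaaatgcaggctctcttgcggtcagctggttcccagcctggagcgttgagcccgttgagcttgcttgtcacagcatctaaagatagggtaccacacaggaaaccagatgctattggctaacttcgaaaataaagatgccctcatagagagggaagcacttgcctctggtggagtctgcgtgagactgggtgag
Cxcr3, chrX:101734098-101734397, minus strand: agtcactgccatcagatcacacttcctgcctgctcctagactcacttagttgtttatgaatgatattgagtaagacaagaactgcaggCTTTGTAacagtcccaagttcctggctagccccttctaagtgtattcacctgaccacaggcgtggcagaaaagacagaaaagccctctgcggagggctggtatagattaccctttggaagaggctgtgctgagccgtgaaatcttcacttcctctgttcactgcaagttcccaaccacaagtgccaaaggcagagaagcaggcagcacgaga
Cxcr4, chr1:128592250-128592549, minus strand: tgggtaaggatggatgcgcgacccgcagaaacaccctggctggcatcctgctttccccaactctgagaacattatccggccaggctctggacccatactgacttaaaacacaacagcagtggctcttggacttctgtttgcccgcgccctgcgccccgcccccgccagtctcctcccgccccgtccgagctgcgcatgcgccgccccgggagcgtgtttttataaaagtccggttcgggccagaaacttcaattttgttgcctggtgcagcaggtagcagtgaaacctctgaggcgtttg
S1pr5, chr9:21248394-21248693, minus strand: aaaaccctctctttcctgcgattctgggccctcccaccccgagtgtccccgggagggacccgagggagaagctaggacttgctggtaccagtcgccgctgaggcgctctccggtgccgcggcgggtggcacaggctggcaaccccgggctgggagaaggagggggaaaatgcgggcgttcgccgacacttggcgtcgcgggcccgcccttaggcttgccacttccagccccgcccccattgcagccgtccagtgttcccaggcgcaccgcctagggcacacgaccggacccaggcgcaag

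Windows were found for 7 of the 9 receptors, all but S1pr1 and Ccr7, and 3 of the 7 held a match. In Cxcr3 the match begins at position -162, counted from the first base of the transcript as 0. Ccr2 held CTTTGTT at position -140, and Cxcr6 held its reverse complement AACAAAG at position 43. The Ccr2 window, chr9:124101933-124102232, begins after the gene start of 124101918 given below. Its position therefore refers to another transcript start, and the Ccr2 match lies within the stated span of the gene. Of all 32851 windows of this kind, 16.9% held a match. A match is a run of letters and not a measured binding site, and its absence from a window says nothing about the factor.

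The level of a receptor can be compared with that of another only per base of transcript, as RPKM (CPM divided by the length in kilobases given in the table). S1pr5 was the most abundant of the 9 in WT cells, at 368 and 392 RPKM. S1pr4, a receptor largely restricted to blood cells, followed at 234 and 187 RPKM. Ccr2, the receptor of the monocyte chemoattractant Ccl2, stood at 203 and 105 RPKM, and its range overlapped that of S1pr4. Cx3cr1, the receptor of fractalkine and a marker of mature NK cells, had 63.0 and 126 RPKM, overlapping Ccr2. Then came S1pr1, the main exit receptor of T and B cells, at 49.0 RPKM in each library. Cxcr3, the receptor of the interferon-induced chemokines Cxcl9 and Cxcl10, stood at 55.3 and 40.2 RPKM and was not separated from S1pr1. Cxcr4 had 20.6 and 41.4 RPKM and overlapped Cxcr3. Far below came Cxcr6 at 1.53 and 0.309 RPKM and Ccr7 at 0.514 and 0.103 RPKM, whose ranges overlapped each other. In these sorted cells the exit receptor S1pr5 thus lay above all the others in every WT library, and Cxcr6 and Ccr7 below all the others.

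In KO cells the order was the same except that Cx3cr1 (148 and 203 RPKM) stood just above Ccr2 (158 and 116 RPKM), with overlapping ranges. S1pr5 was again first, at 289 and 352 RPKM, with no overlap with S1pr4 at 243 and 164 RPKM.

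**Figure D1:**
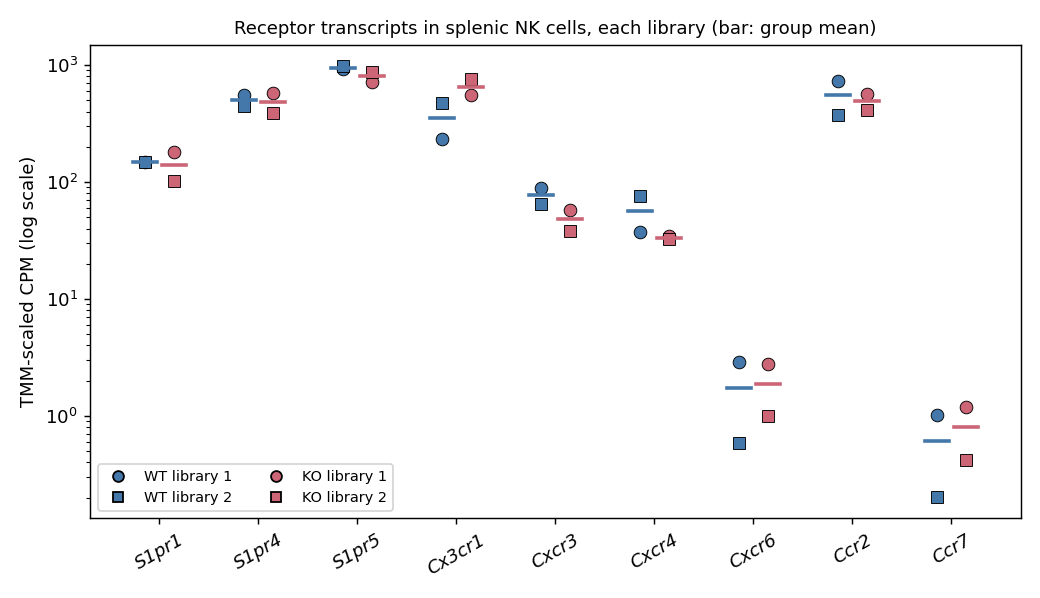
Level of each receptor transcript in the 4 libraries, as TMM-scaled CPM on a log axis, with blue for WT, red for KO, circles for libraries numbered 1, squares for libraries numbered 2 and bars for group means. Both KO points lie above both WT points for Cx3cr1 and below them for S1pr5, Cxcr3 and Cxcr4, while Cxcr6 and Ccr7 stay under 5 CPM in every library.

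None of the 9 receptors passed the test between genotypes (edgeR quasi-likelihood test, Benjamini-Hochberg adjusted p = 1.00 for each). The test called 0 of 12723 genes (0%), and at an unadjusted p under 0.05 it held 361 genes (2.84%) and 0 of the receptors. DESeq2 called 71 genes (0.558%) and limma voom 0 genes (0%), in each case with 0 of the receptors among them. The 95% interval of the log2 fold change (KO minus WT) included 0 for all 9, but an interval of this width also leaves room for sizeable changes. The deleted gene Tcf7, with a log2 fold change of -2.22, was not called by edgeR either (unadjusted p = 0.00607). DESeq2 called Tcf7 (adjusted p = 0.00216). In 4 of 9 receptors (44.4%) the groups did not overlap, against 2699 of 12723 genes tested (21.2%). KO lay above WT in 1 of them (9.64% of all genes) and below WT in 3 (11.6% of all genes). The median log2 fold change was -0.08 over the 9 receptors and -0.01 over all genes tested. With 2 animals a group, an exact two-sided permutation test of a single gene cannot give a p under 0.333. In bulk RNA, fewer cells bearing a transcript and less transcript per cell cannot be told apart.

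**Figure D2:**
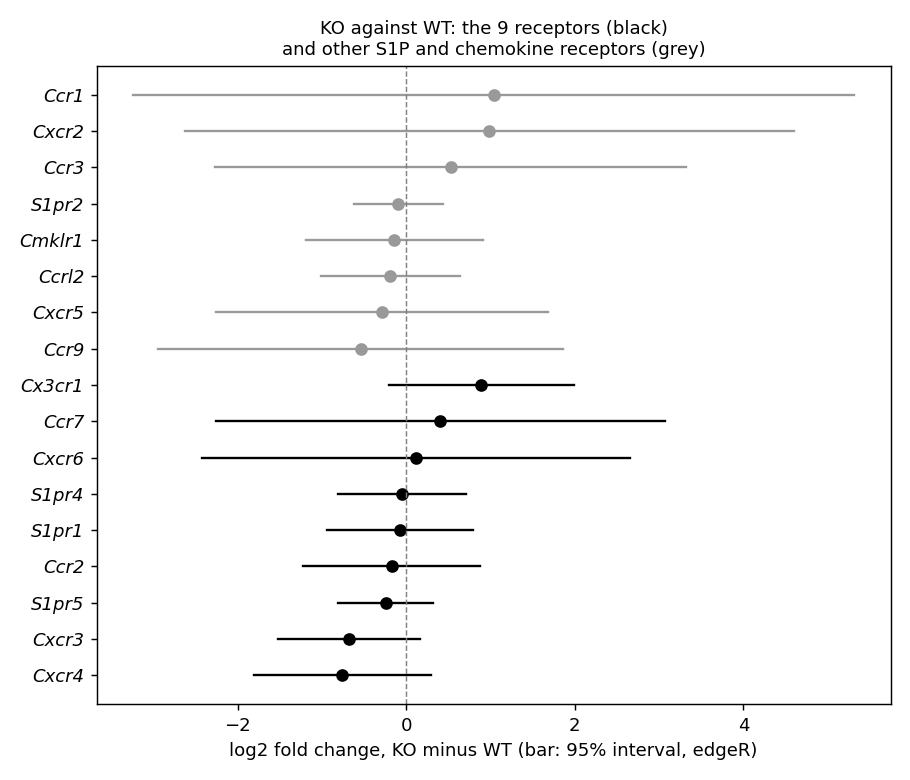
Log2 fold change of KO over WT (point) with its 95% interval from edgeR (line) for the 9 receptors in black and for 8 other S1P and chemokine receptors tested in grey. Every line crosses 0, and Cx3cr1 (0.89), Cxcr3 (-0.68) and Cxcr4 (-0.76) lie farthest from 0 among receptors above 5 CPM.

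Among the S1P receptors, S1pr5 (chromosome 9, 21242917 to 21248443) was counted 29857 and 38439 times in WT and 21139 and 31666 times in KO. That is 919 and 979 CPM against 721 and 878 CPM. Both KO values lay below both WT values, by a small margin between WT library 1 and KO library 2. The log2 fold change was -0.25 (SE 0.21, 95% interval -0.81 to 0.31). The same-number log2 ratios were -0.35 and -0.16. A predicted transcript on the opposite strand, Gm48303, touches an S1pr5 exon. S1pr4 (chromosome 10, 81497745 to 81500137) stood at 559 and 447 CPM in WT mice versus 581 and 392 CPM in KO mice. The KO values enclosed the WT values, and the log2 fold change was -0.05 (SE 0.29). S1pr1 (chromosome 3, 115710433 to 115715055) stood at 148 and 148 CPM in WT mice versus 179 and 102 CPM in KO mice. Its WT libraries were nearly equal, and the KO libraries lay on either side of them, with a log2 fold change of -0.08 (SE 0.32) and same-number ratios of 0.27 and -0.53. The direction for S1pr1 and S1pr4 therefore depended on which KO library was read.

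The other S1P receptors added little to this group. S1pr2 stood at 69.3 and 68.1 CPM in WT mice versus 60.6 and 68.2 CPM in KO mice (log2 fold change -0.09, SE 0.20). S1pr3 was counted 0, 6, 6 and 7 times in WT 1, WT 2, KO 1 and KO 2 and was not tested.

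Cx3cr1 (chromosome 9, 120048683 to 120068296), whose promoter is printed above, had the largest difference among receptors above 5 CPM. It was counted 7637 and 18508 times in WT and 16174 and 27321 times in KO, or 235 and 471 CPM against 551 and 758 CPM. The group means were 353 ± 167 CPM for WT and 655 ± 146 CPM for KO (SD, n = 2 each). Both KO libraries were above both WT libraries, with the WT library numbered 2 close below the KO library numbered 1. The log2 fold change was 0.89 (SE 0.41, 95% interval -0.21 to 1.99), which corresponds to a 1.85-fold higher level. Its edgeR unadjusted p was 0.0901 and the adjusted p 1.00. Of 6828 tested genes with a mean of at least 20 CPM, 65 (0.952%) had a larger absolute log2 fold change. The same-number log2 ratios were 1.23 and 0.69. Between the 2 WT libraries alone the log2 ratio was 1.00, about as large as the difference between genotypes. Without WT library 1 the log2 fold change was 0.47, and without WT library 2 it was 1.49. In GENCODE the Cx3cr1 gene model is longer, from 119901616 to 120069879. There 9 genes overlap it, and 1 of them, the antisense gene Gm33858, touches a Cx3cr1 exon. How many of them overlap the shorter span given above was not counted.

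Cx3cr1 is also a gene of monocytes and macrophages, so their markers are given beside it. Of 11 monocyte and macrophage markers tested, 10 had a log2 fold change above 0 (median 0.69). Their summed level was 1444 and 1216 CPM in WT mice versus 1299 and 817 CPM in KO mice, most of it from Ly6c2, a gene NK cells also express, which stood at 1282 and 1182 CPM in WT mice versus 910 and 769 CPM in KO mice. Csf1r, the receptor of the macrophage growth factor, stood at 14.0 and 7.64 CPM in WT mice versus 24.1 and 6.46 CPM in KO mice. Adgre1 (F4/80) stood at 6.12 and 2.93 CPM against 14.5 and 1.89 CPM, and the macrophage pore protein gene Mpeg1 at 22.4 and 4.28 CPM against 41.9 and 3.97 CPM. Lyz2, the lysozyme gene, stood at 92.7 and 3.31 CPM against 258 and 18.6 CPM, with same-number log2 ratios of 1.47 and 2.45. Between the libraries numbered 1, 10 of the 11 markers were higher in KO. In the pair numbered 2, 3 were higher (Lyz2, Cd68 and Cd14) and 8 lower, Csf1r, Adgre1 and Mpeg1 among them. Without Ly6c2 the markers summed to 163 and 34.5 CPM in WT mice versus 389 and 47.2 CPM in KO mice. The sum was higher in KO in both numbers, but in the pair numbered 2 that rested on Lyz2 (3.31 CPM in WT against 18.6 CPM in KO). All 10 neutrophil markers were above 0 (median 4.11), with sums of 36.3 and 1.83 CPM in WT mice versus 426 and 88.0 CPM in KO mice, and Elane, Ltf and Ngp at 0 in WT library 2. Their part in the Cx3cr1 difference was not tested.

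**Figure D3:**
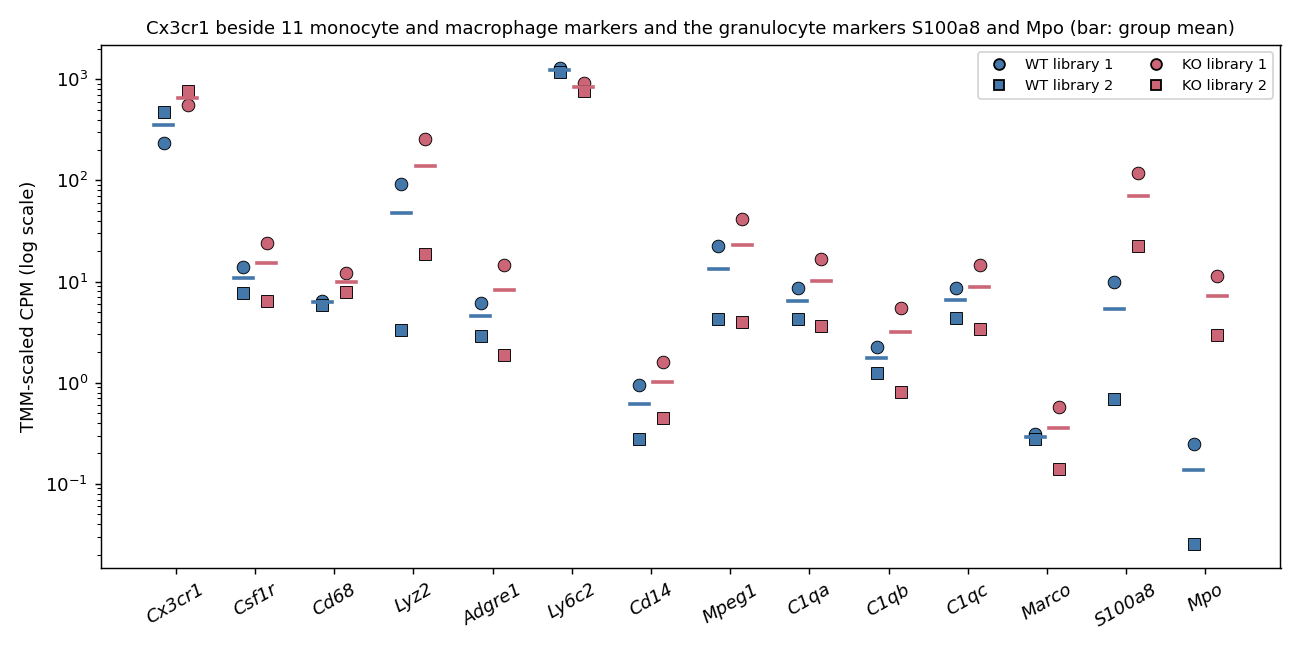
Cx3cr1 beside 11 monocyte and macrophage markers and the granulocyte markers S100a8 and Mpo, as TMM-scaled CPM on a log axis in each library, with bars for group means. In the libraries numbered 2 (squares) Cx3cr1 is higher in KO (758 against 471 CPM), as are Lyz2, Cd68 and Cd14, while the other 8 monocyte and macrophage markers are lower, and S100a8 and Mpo are higher in both KO libraries.

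Cxcr3 (chromosome X, 101731535 to 101734147) lay on the other side. It was counted 2892 and 2537 times in WT and 1692 and 1377 times in KO, or 89.0 and 64.6 CPM against 57.7 and 38.2 CPM. The means were 76.8 ± 17.2 CPM for WT and 47.9 ± 13.8 CPM for KO (SD, n = 2 each), and the groups did not overlap. The log2 fold change was -0.68 (SE 0.32, 95% interval -1.53 to 0.17), a level 1.60-fold lower in KO. Its edgeR unadjusted p was 0.0918 and the adjusted p 1.00. A larger absolute log2 fold change was found in 1.49% of genes with a mean of at least 20 CPM. Of the 9 receptors Cxcr3 had the most even ratios within the same number, -0.62 and -0.76. In each genotype it was lower in library 2 than in library 1, by log2 ratios of -0.46 and -0.59. T cells, which also carry Cxcr3, were represented by 11 markers. Of the 9 tested, 6 were below 0 (median -0.16), with sums of 230 and 176 CPM in WT mice versus 309 and 163 CPM in KO mice and Foxp3 at 0 in KO library 1. Most of each sum came from the receptor constant genes Trbc1, Trbc2 and Trac. Trbc1 stood at 92.5 and 64.5 CPM in WT mice versus 84.7 and 56.0 CPM in KO mice. Trbc2 stood at 121 and 96.9 CPM against 120 and 65.0 CPM, and Trac at 5.88 and 8.30 CPM against 94.0 and 36.1 CPM. Cd3e, Cd3d and Cd3g added little, with at most 5.42 CPM in any library (Cd3g in KO library 1). The part of T cells in the Cxcr3 difference was not tested.

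Cxcr4 (chromosome 1, 128588199 to 128592299) stood at 37.3 and 75.2 CPM in WT mice versus 34.2 and 32.2 CPM in KO mice. The KO libraries were close together, and the WT library numbered 2 stood apart from the other 3. The log2 fold change was -0.76 (SE 0.39, 95% interval -1.81 to 0.29). In edgeR the unadjusted p was 0.118. The same-number log2 ratios, -0.12 and -1.22, were unequal. Without WT library 2 the log2 fold change was -0.15, so the size of the Cxcr4 difference rested on that library.

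**Figure D4:**
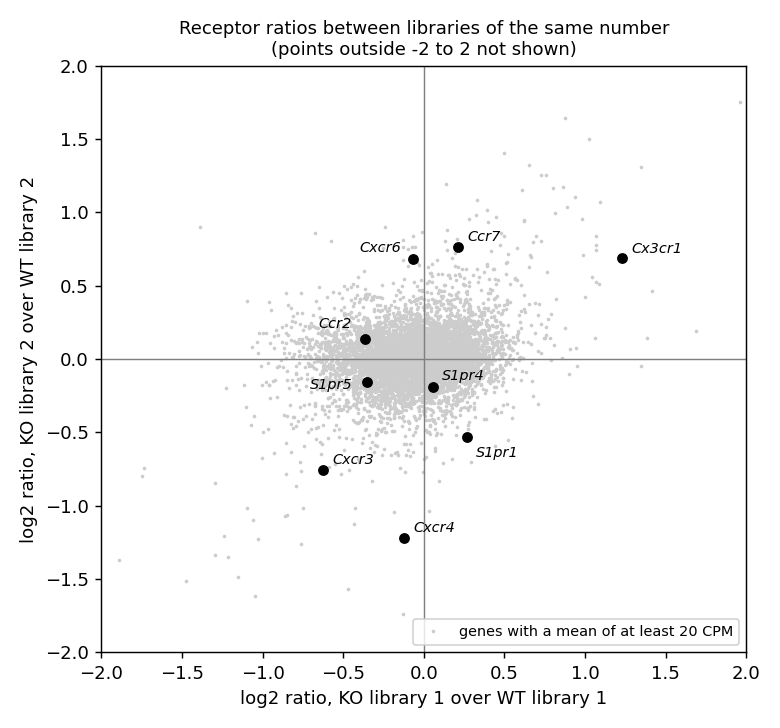
Log2 ratio of KO to WT between the libraries numbered 1 (x axis) and between those numbered 2 (y axis), with the 9 receptors in black and genes with a mean of at least 20 CPM in grey. Cx3cr1 (1.23 and 0.69) lies at the upper right and Cxcr3 (-0.62 and -0.76) at the lower left, while Cxcr4 (-0.12 and -1.22) differs mainly between the libraries numbered 2.

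Ccr2 (chromosome 9, 124101918 to 124109140) was highly expressed but uneven, at 729 and 378 CPM in WT mice versus 566 and 415 CPM in KO mice. Both KO values lay between the WT values. The log2 fold change was -0.17 (SE 0.39), and the same-number ratios were -0.37 and 0.14. Cxcr6 (chromosome 9, 123806477 to 123811754), the receptor of Cxcl16 and a gene of liver-resident innate lymphocytes, was counted 94 and 23 times in WT and 81 and 36 times in KO. That is 2.89 and 0.586 CPM against 2.76 and 0.999 CPM, with a log2 fold change of 0.11 (SE 0.95). The gene lies inside Fyco1, which is on the opposite strand, and no annotated Cxcr6 exon touches a Fyco1 exon. Ccr7 (chromosome 11, 99144199 to 99155077), which guides cells into lymph nodes, was counted 33 and 8 times in WT and 35 and 15 times in KO. Its levels were 1.02 and 0.204 CPM against 1.19 and 0.416 CPM, with a log2 fold change of 0.40 (SE 1.00). For Cxcr6 and Ccr7 the groups overlapped and the intervals ran from -2.43 to 2.65 and from -2.26 to 3.07. A change of several-fold in either direction was therefore not excluded.

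The 2 rare receptors differed more between library numbers than between genotypes. The log2 ratio of library 2 to library 1 was -2.13 in WT and -1.38 in KO for Cxcr6, and -1.88 and -1.33 for Ccr7. Ccr2 was lower in library 2 as well, by ratios of -0.95 and -0.45. In all, 7 of 9 receptors differed between the numbers in the same direction in both genotypes, 5 lower and 2 higher in library 2. Between the genotypes 5 of 9 differed in the same direction in both numbers, namely S1pr5, Cx3cr1, Cxcr3, Cxcr4 and Ccr7. The same shares over all genes were not counted, so neither count describes the receptors in particular. Over 12723 genes the deviations of same-numbered libraries from their group means had a correlation of 0.73. Myeloid, T and B cell markers and the share of counts from long genes moved with the number too. B cell and dendritic cell markers, whose cells carry Ccr7, had summed levels of 248 and 787 CPM in WT library 1 against 174 and 636 CPM in WT library 2. In KO they summed to 450 and 1193 CPM in library 1 and 225 and 1198 CPM in library 2. Ighm and Igkc made up most of the B cell sum. Ighm stood at 177 and 137 CPM in WT mice versus 210 and 175 CPM in KO mice, and Igkc at 50.1 and 22.5 CPM against 215 and 38.4 CPM. Most of the dendritic cell sum was Itgax, and without it the sums of libraries 1 and 2 were 54.7 and 32.4 CPM in WT mice versus 66.3 and 33.0 CPM in KO mice. Their part in these differences was not tested.

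Of 8 B cell markers tested, 5 were above 0 (median 0.03), and of 8 dendritic cell markers, 7 were above 0 (median 0.53), with Itgax, which NK cells also express, at 733 and 603 CPM in WT mice versus 1127 and 1165 CPM in KO mice. Clec9a was at 0 in WT library 2, and Siglech in both libraries numbered 2. Of 8 markers of other innate lymphoid cells tested, 6 were below 0 and 2 above (median -0.28). Their sums were 119 and 137 CPM in WT mice versus 52.4 and 118 CPM in KO mice, with Il17rb at 0 in both KO libraries. In 3 the groups did not overlap, all with KO below WT: Il7r (log2 fold change -3.12), Kit (-2.55) and Rora (-1.76). DESeq2 called Il7r and Kit, and edgeR called neither. Kit stood at 50.3 and 21.9 CPM in WT mice versus 5.11 and 7.21 CPM in KO mice. Gata3, a large part of the sums, stood at 46.6 and 82.8 CPM against 29.8 and 87.7 CPM. All 8 erythroid and platelet markers tested were above 0 (median 2.32), with sums of 43.0 and 29.9 CPM in WT mice versus 219 and 128 CPM in KO mice. The 10 NK cell markers were split evenly, 5 above and 5 below 0, with a median of 0.01 and sums between 28031 and 35424 CPM. Their groups overlapped in 9. The exception was Klrg1, with KO above WT and a log2 fold change of 0.58 (SE 0.28) that did not pass the edgeR test.

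On the genome, 4 of the 9 receptors lie on chromosome 9. Cxcr6 and Ccr2 belong to a cluster of chemokine receptor genes there. Within the cluster, Ccr3 stood at 4.80 and 1.43 CPM in WT mice versus 7.74 and 1.25 CPM in KO mice, and Ccr1, Ccr9, Xcr1 and Ccr1l1 had at most 1.13 CPM in any library (Ccr1 in KO library 1). Ccr1 and Ccr9 were tested, with log2 fold changes of 1.04 (SE 1.61) and -0.54 (SE 0.90).

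Outside the cluster, the chemerin receptor gene Cmklr1, which NK cells are known to carry, stood at 316 and 496 CPM in WT mice versus 267 and 469 CPM in KO mice (log2 fold change -0.14, SE 0.39). Ccrl2, a chemerin-binding relative, stood at 44.9 and 31.0 CPM against 38.4 and 28.1 CPM (log2 fold change -0.19). Cxcr5, the receptor for B cell follicles, lay at 1.78 and 3.77 CPM against 1.06 and 3.47 CPM. The neutrophil receptor gene Cxcr2 lay at 0.769 and 0.0255 CPM in WT mice versus 1.06 and 0.499 CPM in KO mice (log2 fold change 0.98, SE 1.36). Of 18 other chemokine receptors examined 7 were tested, 3 above 0 and 4 below (median -0.14), with overlapping groups in all 7 and none passing the test. The remaining 11 were counted at most 13 times in any library.

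Genes that set how strongly S1P receptors act were examined next. Cd69, whose protein binds S1pr1 and takes it off the cell surface, stood at 25.3 and 16.1 CPM in WT mice versus 42.1 and 38.4 CPM in KO mice. Both KO values were above both WT values. The log2 fold change was 0.96 (SE 0.30), and the same-number ratios were 0.73 and 1.25. In edgeR its unadjusted p was 0.0292 and its adjusted p 1.00. Cd69 is the only one of the 5 genes in this group with an unadjusted p under 0.05. Klf2, a factor that drives S1pr1, stood at 1085 and 1576 CPM in WT mice versus 1031 and 1526 CPM in KO mice, and Tbx21 (T-bet), on which S1pr5 depends in NK cells, at 869 and 1172 CPM against 868 and 1243 CPM. Their log2 fold changes were -0.06 (SE 0.32) and 0.05 (SE 0.29). Foxo1, which acts upstream of Klf2, differed by -0.25 (SE 0.45), and Zeb2, which acts with T-bet in late NK cell maturation, by -0.22 (SE 0.60). The groups overlapped for all 4 of these factors.

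Of 9 tested genes that make, export or break down S1P, 6 were above 0 and 3 below (median 0.09). Plpp2, a lipid phosphatase, stood at 33.2 and 26.4 CPM in WT mice versus 50.6 and 37.4 CPM in KO mice, with no overlap and a log2 fold change of 0.56 (SE 0.27). The kinase gene Sphk2 differed by -0.23 (SE 0.29), and Sgpl1, which encodes the lyase that degrades S1P, by -0.11 (SE 0.19). Of 25 genes for G proteins, arrestins, receptor kinases and the migration machinery, 6 were above 0 and 19 below (median -0.03). Arrb2, an arrestin that takes up activated receptors, stood at 148 and 178 CPM in WT mice versus 153 and 267 CPM in KO mice (log2 fold change 0.36, SE 0.34). Rgs2, which shortens G protein signals, differed by -0.24 (SE 0.30). Rac2, which had the highest mean CPM of the 25, with no account of length, differed by -0.19 (SE 0.27). No gene of either list passed the test.

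Ligand genes of the receptors were counted rarely in the sorted cells. Only 2 of 11 ligand genes were tested, Cxcl10 at 2.40 and 0.535 CPM in WT mice versus 0.887 and 0.721 CPM in KO mice, and Cxcl16 with a log2 fold change of 0.73 (SE 0.64). Ccl2, Ccl7, Ccl12, Ccl19 and Ccl21a were counted 0 times in all 4 libraries, so that levels below a limit of 0.0764 to 0.102 CPM, depending on the library, could go unseen (3 counts per library, counting error only).

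To place the receptors among other genes, the 3 nearest profiles were sought by Euclidean distance of centred log2 CPM over the 4 libraries, among 6785 genes with a symbol and a mean of at least 20 CPM. For S1pr5 they were Fam122b, Tmem250-ps and the ion channel gene Trpm7, at distances of 0.0159, 0.0186 and 0.0223. For Cx3cr1 they were the mitochondrial topoisomerase gene Top1mt, the Ets family factor Ets2 and the prolyl hydroxylase gene P4ha1, at distances of 0.277, 0.492 and 0.516. The distances of the 2 receptors cannot be compared, since the values were not scaled and a gene that varies little lies near many others. With only 4 libraries many genes can share a profile.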

How the data were processed

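RNA was sequenced from 4 libraries of sorted mouse spleen NK cells, 2 WT and 2 Tcf7 KO, from 200 ng of RNA each with a TruSeq preparation and paired-end reads, per the labels' protocols. The deposited values are whole-number counts per Entrez gene number with a gene length. According to the submitters' processing notes, the authors used featureCounts and the mm10 build. Versions, the aligner and the strand setting are not given in the sources used here, so reads of a gene and of one overlapping it on the other strand may not be told apart. Gene length and other columns are per the file headers. The 4 single-sample files held the same counts as the table of the series, and 0 columns were left without a sample.

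Symbols and positions came from a RefSeq table of GRCm38.p6 (95.0% of gene numbers matched), exon overlaps from GENCODE M21 and promoter windows from RefSeq. Genes were kept with filterByExpr (minimum count 10). Genotypes were compared in R 4.3.3 by edgeR 4.0.16, using TMM factors, a robust quasi-likelihood fit with genotype alone in the model and a two-sided F-test, with Benjamini-Hochberg adjustment over all genes tested and a threshold of 0.05. Standard errors are the fold change divided by the root of its F value, and 95% intervals from the t distribution with the fit's degrees of freedom. Same-number ratios have 0.1 CPM added. The tests were first run on simulated data, where edgeR, DESeq2 and voom were each required to recover the direction of large changes. Only DESeq2 was also required to call most of the largest changes. Alternatives were DESeq2 1.42.0, limma 3.58.1 voom, other scalings and filters, a fit without robust, the replicate number as a block, and each library left out. Counts of any 2 libraries differed beyond sampling noise (chi-square over its degrees of freedom from 36.5 to 282).

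The receptors, gene lists, naming rule and tests were chosen with earlier results of these data known. Named are the 9 receptors, Tcf7, the tested related receptors and exit regulators, and the nearest profiles. Of other lists the 2 largest differences above a mean of 5 CPM are named, with the gene of the highest mean CPM. Other genes, such as Cd3e and single markers, were named after their values were seen. Some listed genes are not reported here and were left out of the counts of their lists.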

Additional observations from a re-analysis of the deposited data

How the results depend on the processing

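The count of genes called was 0 in the main fit and with other scalings, a minimum of 5 CPM in 2 libraries, voom or a fit without robust. It was 35 with no filter on low counts, 71 with DESeq2 and 221 (1.74%) with the replicate number as a block, and ran from 0 to 53 when 1 library was left out (33 without KO library 1, 53 without KO library 2). The count of receptors called was 0 under every alternative except the replicate block, where it was 2: Cx3cr1 (log2 fold change 0.96, edgeR adjusted p = 0.0179) and Cxcr3 (-0.69, 0.0257). The block also called Cd69 (0.99, 0.0169) and, among the markers, Lyz2 (1.90, 0.0106), Itgax (0.78, 0.0322), 5 neutrophil, 5 erythroid and platelet and 2 other innate lymphoid cell genes. Deviations of same-numbered libraries from their group means had a correlation of 0.73 over 12723 genes, a hint from the data, while the labels do not say that the numbers pair the animals. The count of receptors with groups that do not overlap was 4 under other scalings and filters and ran from 6 to 7 with a library left out, since 1 library then stands for its group. The share over all genes was not counted for these alternatives, so their counts do not describe the receptors in particular.

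The direction turned only with a library left out, in 9 of 106 alternative values, and the log2 fold change then ranged from -0.53 to 0.30 for S1pr1, -0.36 to 0.24 for S1pr4, -0.55 to 0.37 for Ccr2, -0.79 to 1.67 for Cxcr6 and -0.53 to 1.95 for Ccr7. S1pr5 (-0.36 to -0.11), Cx3cr1 (0.47 to 1.49), Cxcr3 (-1.01 to -0.38) and Cxcr4 (-1.18 to -0.15) kept their direction under all alternatives run. In these fits the lone library is assumed to vary like the other group. In the order of levels, 5 of 9 receptors kept their rank in WT without WT library 1 and more under the other alternatives. With a minimum of 5 CPM, Cxcr6 and Ccr7 were not tested.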
